A study of Mus musculus with 14 samples.

Results

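The cholesterol synthesis and SREBP2 pathway was followed in injured and uninjured mouse spinal cord through 26 genes, taken as the rows of the deposited table whose gene name is on the list, out of 56748 rows. They fall into 6 roles, from the first condensations of acetyl-CoA to the control of SREBP2 and the transport of sterol. Of the 26, 25 reached 1 FPKM (fragments per kilobase of gene, scaled to the depth of the library) in at least 3 of the 14 libraries and were tested, and Fdps was not. The study crossed genotype, Control or AstroCSF1KO, with spinal cord injury (SCI). The uninjured groups were Control (n = 3) and AstroCSF1KO (n = 3), and the injured groups, taken 7 days after SCI, were Control (n = 4) and AstroCSF1KO (n = 4). RNA came from tissue around the lesion centre, or from the matching segment of uninjured cords, so each library mixes all cell types of the tissue. AstroCSF1KO is read here as loss of Csf1, the gene of the growth factor CSF1, in astrocytes; the labels used here do not give the alleles, the driver of the deletion, the strain or the age of the mice, nor what the controls carry.

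Cells make cholesterol from acetyl-CoA through HMG-CoA, mevalonate, isoprenoid diphosphates, squalene and lanosterol. When the membranes of the endoplasmic reticulum are rich in sterol, the INSIG proteins hold the escort protein SCAP, and with it the transcription factor SREBP2, in that compartment; when sterol is low, SCAP takes SREBP2 to the Golgi, where proteases free the part that enters the nucleus and switches on most genes of the pathway, INSIG1 and SREBP2 itself among them. In the nervous system nearly all cholesterol is made locally, and most of it resides in myelin.

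SREBP2 is known to bind sterol regulatory elements (SRE) beside CCAAT and GC boxes, so the promoters of the members were searched for these letters. RefSeq windows of 300 bases, 250 before and 50 after the annotated start, on build GRCm38.p6, covered 22 of the members in 28 windows. The build differs from mm39, on which the deposited positions are given. 3 members are shown: Hmgcs1 and Acat2 hold the only matches to the SRE letters searched among the member windows, and Insig1 had the smallest p after injury in AstroCSF1KO cords. The windows are chr13:119690101-119690400 on the plus strand for Hmgcs1, chr17:12960676-12960975 on the minus strand for Acat2 and chr5:28071162-28071461 on the plus strand for Insig1. Capitals mark TCACNCCAC, its core CACCCCAC, and CCAAT on either strand (ATTGG where it lies on the other strand).
Hmgcs1: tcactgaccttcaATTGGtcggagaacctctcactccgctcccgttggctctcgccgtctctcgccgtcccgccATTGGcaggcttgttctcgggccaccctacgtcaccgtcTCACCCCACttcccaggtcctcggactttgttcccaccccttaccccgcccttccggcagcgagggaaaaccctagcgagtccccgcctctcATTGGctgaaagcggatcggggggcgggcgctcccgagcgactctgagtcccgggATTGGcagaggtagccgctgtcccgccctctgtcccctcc
Acat2: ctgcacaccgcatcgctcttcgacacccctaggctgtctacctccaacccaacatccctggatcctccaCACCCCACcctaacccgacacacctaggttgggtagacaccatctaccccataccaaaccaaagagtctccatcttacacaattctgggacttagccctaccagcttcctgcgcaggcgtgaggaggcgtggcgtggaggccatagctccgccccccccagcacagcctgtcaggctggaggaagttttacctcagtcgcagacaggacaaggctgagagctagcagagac
Insig1: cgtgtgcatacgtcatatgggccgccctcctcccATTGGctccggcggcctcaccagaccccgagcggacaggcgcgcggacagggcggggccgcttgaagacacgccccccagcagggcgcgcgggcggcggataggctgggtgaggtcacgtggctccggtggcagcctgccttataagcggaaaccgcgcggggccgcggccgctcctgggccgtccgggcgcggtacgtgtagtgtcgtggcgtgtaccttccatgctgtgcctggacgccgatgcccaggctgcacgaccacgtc
In Hmgcs1 the SRE begins at position -137 from the start and holds the core within it, and in Acat2 the core begins at -181. The window of Insig1 holds 1 CCAAT, at -216, and no match to either SRE spelling, which says only that these letters are not in that window.

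TCACNCCAC, sought on both strands, was in 1 of the 28 member windows (3.57%) and 1.24% of all 32851 mouse windows in the table. CACCCCAC, which overlaps it, was in 2 member windows (7.14%), the same Hmgcs1 site among them, and 2.87% of all. CCAAT was more frequent, in 67.9% of the member windows against 37.4% of all, and lay in at least 1 window of 19 of the 22 genes. GGGCGG, the GC box, was in 78.6% of the member windows and 35.7% of all. A match is a description of the sequence, and no test was made on these shares.

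**Figure D1:**
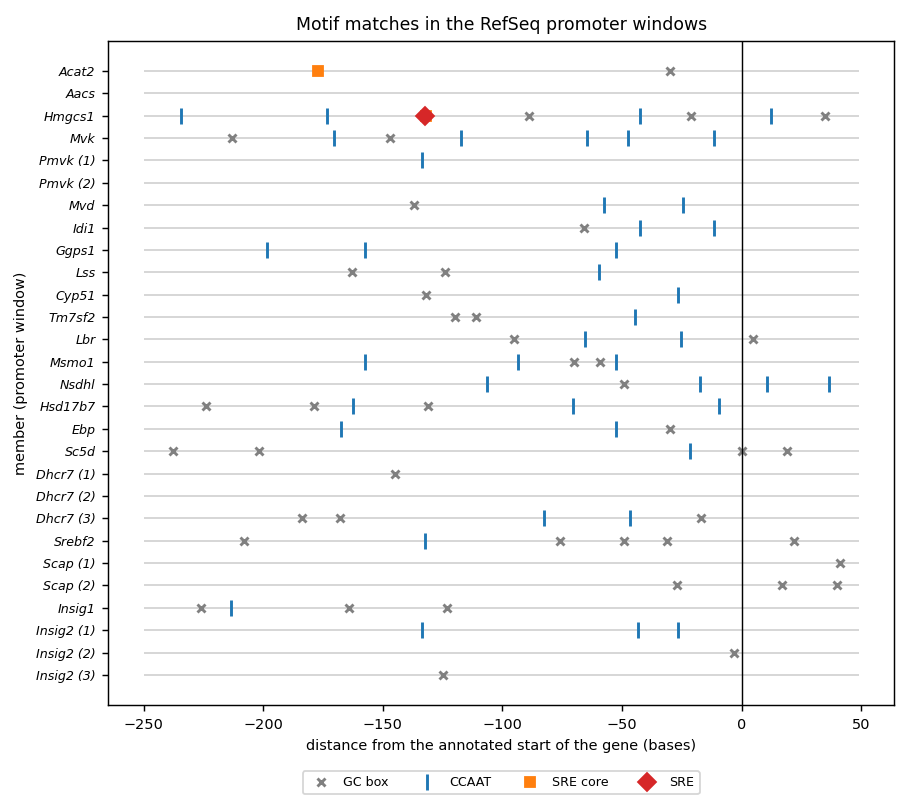
Positions of motif matches in the 28 promoter windows of 22 members; the x axis is the distance in bases from the annotated start of the gene, and each mark is a match on either strand. CCAAT and GC boxes lie in most windows, and an SRE match lies only in Hmgcs1, with the core alone in Acat2.

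The libraries held 13263610 to 21969581 reads assigned to genes. 3 control libraries (uninjured replicate 1 and injured replicates 1 and 4) stood apart: 1.45 to 2.06% of their detected genes had exactly 1 read, against 8.44 to 11.6% in the other 11, and mitochondrial genes took 6.73 to 13.9% of their reads against 3.38 to 5.78%. Within their groups, all of these libraries had higher levels than the remaining ones for 7 members (Cyp51, Ggps1, Hmgcs1, Idi1, Insig2, Msmo1 and Sc5d) and lower levels for 9 (Aacs, Dhcr7, Ebp, Mvd, Mvk, Pmvk, Scap, Srebf2 and Tm7sf2). The share of all genes with such a pattern was not counted, so it is not read as particular to the members. Control results are therefore given with and without these libraries. Another 4 libraries, all AstroCSF1KO (uninjured replicate 3 and injured replicates 2 to 4), had 2.89 to 3.99% of reads in ribosomal RNA, against 0.290 to 0.764% elsewhere. Csf1 itself was at 8.23, 10.3 and 11.0 FPKM in uninjured AstroCSF1KO cords and 4.24, 11.9 and 12.2 FPKM in uninjured control cords, where the lowest value is the library that stands apart and the other 2 lie above the AstroCSF1KO range. After injury it was at 16.4 to 19.9 FPKM in AstroCSF1KO cords, and at 17.6 and 18.3 FPKM in the control libraries that do not stand apart and 7.95 and 10.4 FPKM in those that do. The table does not show whether the deleted part of the gene is counted, so these levels do not check the label. Xist and Ddx3y levels put both sexes in every group. Markers of neurons, astrocytes and oligodendrocytes were present in all libraries.

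**Figure D2:**
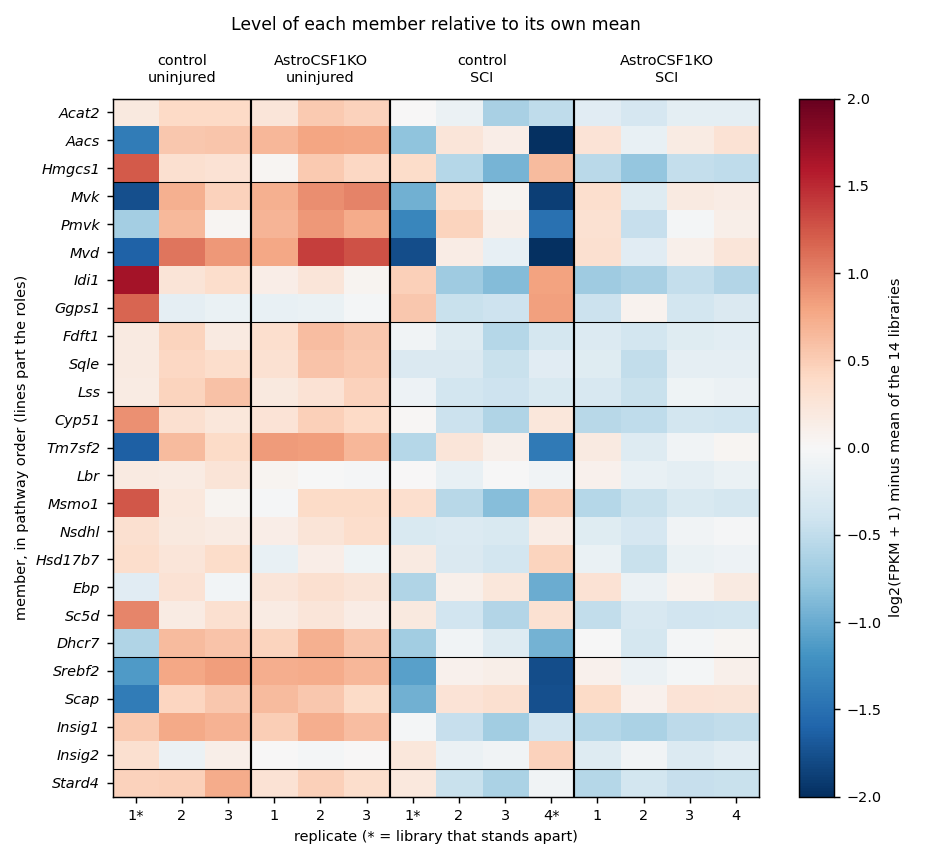
Level of 25 members in the 14 libraries; colour is log2(FPKM + 1) minus the mean of the gene over all libraries, rows are genes by role, columns are libraries by group, and an asterisk marks the 3 control libraries that stand apart. The injured AstroCSF1KO columns lie below the uninjured ones for most rows, and the marked columns differ from the rest of their groups in both directions.

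After injury the pathway was lower in AstroCSF1KO cords in nearly all of its steps. Of the 25 members tested, 21 fell and none rose (limma, adjusted p under 0.05), where 26.1% of all 15155 genes tested fell; for 20 of them the groups did not overlap, as for 28.4% of all genes in that direction. The median change of the members was -0.67 on the log2(FPKM + 1) scale, against -0.03 over all genes, and 4.79% of all genes had a change below that median. By role, 3 of 3 genes from acetyl-CoA to HMG-CoA fell, 4 of 5 of the mevalonate and isoprenoid steps, 3 of 3 from squalene to lanosterol, 6 of 9 from lanosterol to cholesterol, 4 of 4 of SREBP2 and its control, and Stard4. The count was 7 when all 14 libraries shared one estimate of the spread, where 2.01% of all genes were called lower, and 4 without the libraries rich in ribosomal RNA, where 2.67% were; the latter leaves 1 injured library, and the members' median stayed between -0.73 and -0.60. In bulk tissue, fewer cells of a type and less RNA per cell cannot be told apart.

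In control cords 24 of the 25 members had a negative change, with a median of -0.61 against -0.05 over all genes, but none passed the limma threshold with all 7 libraries, where 0.0132% of all genes were called lower. With voom on recovered reads the count was also 0. At an unadjusted p under 0.05 there were 6 members, where 2.71% of all genes had such a p and a lower level. The groups did not overlap for 8 members, all lower after injury (Acat2, Fdft1, Sqle, Lss, Lbr, Nsdhl, Insig1 and Stard4), against 4.76% of all genes. Without the 3 libraries that stand apart, 2 uninjured and 2 injured libraries remained and 17 members were lower (limma, adjusted p under 0.05), against 11.7% of all genes, with a median of -0.73. In that subset both uninjured libraries are female and both injured ones male by Xist and Ddx3y, so sex and injury cannot be told apart there. With the replicate number as a block, 6 members were called lower (limma), where 1.47% of all genes were called lower. This block pairs uninjured replicate 1 with injured replicate 1, both of which stand apart. No uninjured cord has the number 4, so the block sets injured replicate 4 aside. The members' median of -0.55 is that of the fit without this library, which is one of those that stand apart. With all 14 libraries in one fit 6 members were also called lower, where 1.87% of all genes were. The genotypes share no library. Over the 25 members the injury changes in control and AstroCSF1KO cords had a Pearson r of 0.80 (Spearman 0.68) with all libraries. Without those that stand apart it was 0.69 (Spearman 0.61). Both are descriptions across genes that are not independent of each other.

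**Figure D3:**
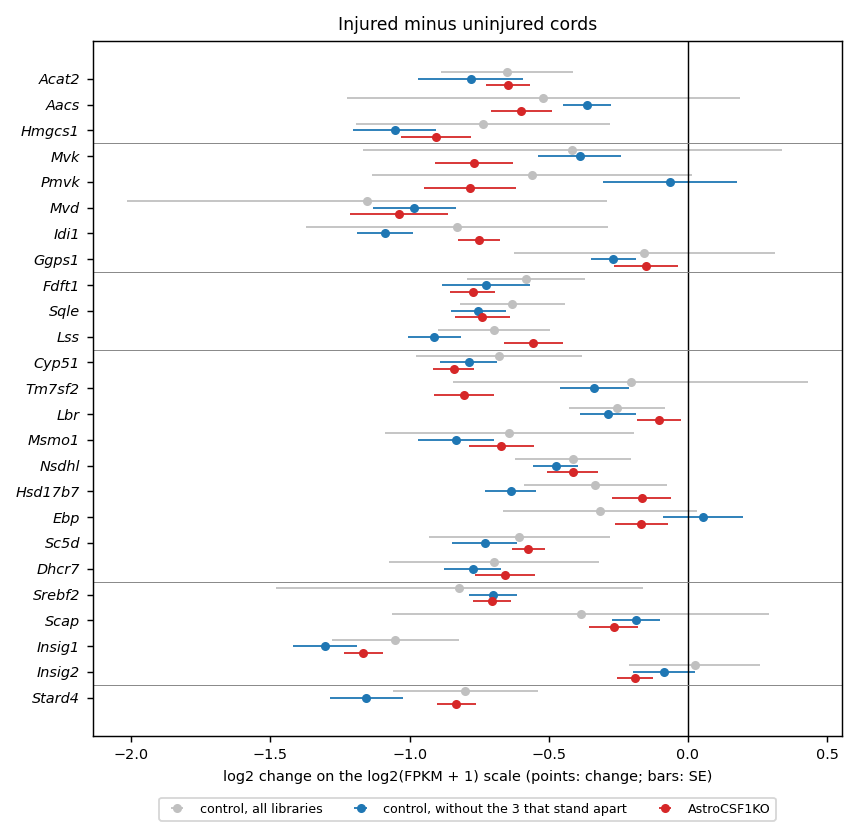
Change after injury of 25 members, grouped by role; the x axis is the log2 change on the log2(FPKM + 1) scale, points are the limma estimates and bars 1 SE. AstroCSF1KO estimates (red) are all below 0, from -1.17 for Insig1 to -0.10 for Lbr. Control estimates carry wider bars with all libraries (grey) than without the 3 that stand apart (blue), to a degree that differs between members.

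The entry of the pathway was led by Hmgcs1, which makes HMG-CoA and had the highest mean level of the members, 91.9 FPKM. Hmgcs1 (ENSMUSG00000093930) lies at chr13:120151915-120169796 on mm39, per the deposited table. In AstroCSF1KO cords Hmgcs1 was at 86.1, 121 and 112 FPKM uninjured and at 57.1, 48.5, 60.0 and 58.6 FPKM injured. All 4 injured cords lay below all 3 uninjured ones, and Hmgcs1 fell by 0.90 ± 0.13 (SE) on the log2 scale (limma, adjusted p = 0.000769). In control cords it was at 197, 105 and 103 FPKM uninjured and 108, 56.1, 43.6 and 130.4 FPKM injured. The highest value of each control group came from libraries that stand apart, and the groups overlapped; the change was -0.74 with all libraries (limma, adjusted p = 0.808) and -1.05 without them (limma, adjusted p = 0.0148). Acat2, the cytosolic thiolase that joins acetyl-CoA to acetoacetyl-CoA, went from 27.9, 34.1 and 32.5 FPKM to 19.9, 18.4, 20.3 and 20.3 FPKM in AstroCSF1KO cords, a fall of 0.65 ± 0.08 (SE; limma, adjusted p = 0.000401). Its control values were 26.9, 31.1 and 31.2 FPKM uninjured and 23.5, 21.4, 14.6 and 16.1 FPKM injured. These control groups did not overlap either, although the change of -0.65 was not called (limma, adjusted p = 0.392). Aacs, which turns acetoacetate into acetoacetyl-CoA, was at 15.7, 17.2 and 17.1 FPKM uninjured and 11.8, 8.48, 10.8 and 11.9 FPKM injured in AstroCSF1KO cords, and fell by 0.60 ± 0.11 (SE; limma, adjusted p = 0.00306). In control cords Aacs was at 2.97, 14.3 and 14.4 FPKM uninjured and 5.04, 11.4, 10.5 and 1.52 FPKM injured. The 3 lowest of these are the libraries that stand apart. The control change of Aacs was -0.52 with them (limma, adjusted p = 0.999) and -0.36 without them (limma, adjusted p = 0.0453).

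Among the mevalonate and isoprenoid steps, Mvd, the decarboxylase that yields isopentenyl diphosphate, had the largest fall in AstroCSF1KO cords. In AstroCSF1KO cords Mvd was at 19.1, 29.7 and 27.3 FPKM uninjured and 13.7, 8.97, 11.5 and 12.9 FPKM injured, without overlap, and fell by 1.04 ± 0.18 (SE; limma, adjusted p = 0.00202). In control cords it was at 2.81, 23.7 and 20.4 FPKM uninjured and 2.45, 12, 9.41 and 1.22 FPKM injured. Here the libraries that stand apart are the lowest of both groups. Among the others, both injured values lay below both uninjured ones (-0.98, limma, adjusted p = 0.0164). With all libraries the control change was -1.15 (limma, adjusted p = 0.909). Idi1, the isomerase of isopentenyl diphosphate, was at 14.6, 15.9 and 13.9 FPKM uninjured and 7.71, 8.11, 9.28 and 8.46 FPKM injured in AstroCSF1KO cords, and fell by 0.75 ± 0.08 (SE; limma, adjusted p = 0.000177). Its control values were 44.1, 16.0 and 17.1 FPKM uninjured and 18.8, 7.73, 6.81 and 23.8 FPKM injured. For Idi1 the libraries that stand apart were the highest of their groups, the opposite of Mvd. The control change of Idi1 was -0.83 with them (limma, adjusted p = 0.836) and -1.09 without them (limma, adjusted p = 0.00722). Mvk, mevalonate kinase, was at 15.1, 17.7 and 18.5 FPKM uninjured and 11.5, 7.22, 10.2 and 9.92 FPKM injured in AstroCSF1KO cords, and fell by 0.77 ± 0.14 (SE; limma, adjusted p = 0.00288). In control cords Mvk was at 1.89, 15.1 and 12.5 FPKM uninjured and 4.05, 11.4, 9.18 and 1.66 FPKM injured. It was not called there with or without the libraries that stand apart. Pmvk, the next kinase, fell by 0.78 ± 0.16 (SE; limma, adjusted p = 0.00557) in AstroCSF1KO cords and ranged from 4.67 to 28.3 FPKM over all libraries. Ggps1, which makes geranylgeranyl diphosphate for protein prenylation and not for sterol, was at 10.3 to 33.2 FPKM, and its change of -0.15 did not pass (limma, adjusted p = 0.326). Fdps, the farnesyl diphosphate synthase between these steps and squalene, was listed at 0 to 0.565 FPKM, or 0 to 49 reads per library. Of the 8372 bp of its span, 7512 are shared with another protein-coding gene on the same strand, Gm43738, itself listed at 0, so the level of Fdps is uncertain.

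All 3 genes from squalene to lanosterol fell after injury in AstroCSF1KO cords, and their groups did not overlap in either genotype. Sqle encodes squalene epoxidase, an oxygen-dependent and rate-limiting step. In AstroCSF1KO cords Sqle was at 24.7, 30.0 and 29.1 FPKM uninjured and 16.7, 13.9, 17.4 and 17.5 FPKM injured, and fell by 0.74 ± 0.10 (SE; limma, adjusted p = 0.000656). In control cords it was at 22.6, 26.8 and 25.7 FPKM uninjured and 16.0, 16.1, 14.3 and 16.8 FPKM injured. The libraries that stand apart lay within or close to the range of their groups for Sqle, and its change was -0.63 with them (limma, adjusted p = 0.249) and -0.75 without them (limma, adjusted p = 0.0126). Fdft1, squalene synthase, was at 31.9, 39.2 and 37.0 FPKM uninjured and 20.7, 19.1, 21.1 and 21.6 FPKM injured in AstroCSF1KO cords, and fell by 0.77 ± 0.08 (SE; limma, adjusted p = 0.000201). Its control values were 28.7, 34.5 and 28.6 FPKM uninjured and 23.8, 20.9, 16.5 and 19.5 FPKM injured. The control change was -0.58 with all libraries (limma, adjusted p = 0.396) and -0.73 without those that stand apart (limma, adjusted p = 0.0359). Injured cords of the genotypes overlapped for this gene. The span of Fdft1 shares 774 bp with Ctsb, a lysosomal protease gene on the opposite strand at a mean of 288 FPKM, and strand was not kept. Lss, which closes the ring to lanosterol, was at 5.41, 5.82 and 6.66 FPKM uninjured and 3.48, 3.12, 4.27 and 4.13 FPKM injured in AstroCSF1KO cords, and fell by 0.56 ± 0.11 (SE; limma, adjusted p = 0.00349). In control cords Lss was at 5.26, 6.62 and 7.39 FPKM uninjured and 4.23, 3.33, 3.18 and 3.51 FPKM injured. This was a change of -0.70 with all control libraries (limma, adjusted p = 0.224) and -0.91 without those that stand apart (limma, adjusted p = 0.00905).

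The steps from lanosterol to cholesterol held 3 of the 4 members that did not pass after injury in AstroCSF1KO cords, and 6 of its 9 genes fell. Cyp51, the lanosterol demethylase, was at 40.1, 46.3 and 43.8 FPKM uninjured and 22.1, 22.8, 25.3 and 24.9 FPKM injured in AstroCSF1KO cords, and fell by 0.84 ± 0.07 (SE; limma, adjusted p = 9.23e-05). In control cords Cyp51 was at 63.0, 41.4 and 38.9 FPKM uninjured and 33.7, 24.2, 21.5 and 39.0 FPKM injured. Control groups overlapped only through injured replicate 4, which stands apart. The control change was -0.68 with all libraries (limma, adjusted p = 0.544) and -0.79 without those that stand apart (limma, adjusted p = 0.0126). Sc5d, the sterol desaturase near the end of the pathway, was at 30.8, 32.5 and 30.7 FPKM uninjured and 19.3, 21.7, 20.8 and 21.0 FPKM injured in AstroCSF1KO cords, and fell by 0.57 ± 0.06 (SE; limma, adjusted p = 0.000190). Its control values were 54.9, 30.9 and 34.6 FPKM uninjured and 31.6, 20.7, 18.0 and 34.1 FPKM injured. Again the highest value of each control group, and the overlap between groups, came from libraries that stand apart. The control change of Sc5d was -0.61 with them (limma, adjusted p = 0.708) and -0.73 without them (limma, adjusted p = 0.0182). Tm7sf2, a sterol reductase, had the lowest mean of the tested members, 3.57 FPKM; it was at 6.39, 6.29 and 5.48 FPKM uninjured and 3.64, 2.44, 2.92 and 3.22 FPKM injured in AstroCSF1KO cords, and fell by 0.80 ± 0.11 (SE; limma, adjusted p = 0.000635). In control cords Tm7sf2 was at 0.32, 5.35 and 4.34 FPKM uninjured and 1.76, 3.82, 3.41 and 0.531 FPKM injured. Its span shares 532 bp with Vps51 on the same strand, and its control change was not called with or without the libraries that stand apart. Msmo1 (-0.67, adjusted p = 0.00224), Dhcr7 (-0.66, adjusted p = 0.00170) and Nsdhl (-0.41, adjusted p = 0.00736; limma), which remove methyl groups or, for Dhcr7, make the final reduction to cholesterol, also fell in AstroCSF1KO cords. Lbr is the other enzyme, besides Tm7sf2, that reduces the same sterol bond, and is also a lamin-binding protein of the inner nuclear membrane. The changes of Lbr (-0.10, adjusted p = 0.322), Hsd17b7 (-0.17, adjusted p = 0.240) and Ebp (-0.17, adjusted p = 0.187) did not pass in limma. These 3 ranged from 3.21 to 4.78, 7.02 to 13.8 and 4.16 to 11.8 FPKM over all libraries.

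Of the genes of SREBP2 control, Insig1 had the largest change and Insig2 the smallest in both genotypes. Insig1 (ENSMUSG00000045294) lies at chr5:28276361-28283660, Insig2 (ENSMUSG00000003721) at chr1:121232082-121260318 and Srebf2 (ENSMUSG00000022463) at chr15:82031382-82089580 on mm39. In AstroCSF1KO cords Insig1 was at 56.3, 66.4 and 61.4 FPKM uninjured and 26.4, 25.3, 27.3 and 28.0 FPKM injured, and fell by 1.17 ± 0.07 (SE; limma, adjusted p = 1.84e-05). In control cords it was at 57.4, 67.9 and 64.6 FPKM uninjured and 38.5, 28.4, 24.2 and 30.3 FPKM injured. No injured cord of either genotype reached the lowest uninjured one, and the control change was -1.05 with all libraries (limma, adjusted p = 0.102) and -1.30 without those that stand apart (limma, adjusted p = 0.00691). Insig2, which does the same work in the membrane but is not known as an SREBP2 target, was at 15.6, 15 and 15.5 FPKM uninjured and 12.8, 14.7, 12.6 and 13.3 FPKM injured in AstroCSF1KO cords, and fell by 0.19 ± 0.06 (SE; limma, adjusted p = 0.0406). Its control values were 19.5, 14.2 and 16.8 FPKM uninjured and 18.3, 14.2, 14.8 and 21.7 FPKM injured, with full overlap. Srebf2, the gene of SREBP2, was at 42.8, 43.3 and 40.7 FPKM uninjured and 27.1, 23.3, 24.8 and 27.2 FPKM injured in AstroCSF1KO cords, and fell by 0.70 ± 0.07 (SE; limma, adjusted p = 0.000152). In control cords Srebf2 was at 11.0, 44.3 and 45.8 FPKM uninjured and 11.4, 27.0, 27.7 and 6.72 FPKM injured. The 3 values at or below 11.4 FPKM are the libraries that stand apart, and without them the control change was -0.70 (limma, adjusted p = 0.0118). With all libraries it was -0.82 (limma, adjusted p = 0.936). Scap, the escort of SREBP2, was at 15.3, 14.3 and 12.7 FPKM uninjured and 12.7, 10.2, 11.7 and 11.6 FPKM injured in AstroCSF1KO cords. It fell by 0.27 ± 0.09 (SE; limma, adjusted p = 0.0380), the only called member whose groups overlapped. In control cords Scap was at 2.99, 13.2 and 14.2 FPKM uninjured and 4.41, 11.8, 12.1 and 2.12 FPKM injured. Scap and Insig2 lay close to the threshold, and several alternatives ended their calls. The adjusted p with a replicate block was 0.0703 for Scap and 0.135 for Insig2 (limma). Neither gene was called in control cords, with or without the libraries that stand apart.

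Stard4, a soluble carrier that moves cholesterol between membranes, was at 10.6, 12.2 and 11.1 FPKM uninjured and 5.42, 6.35, 5.93 and 5.99 FPKM injured in AstroCSF1KO cords, and fell by 0.83 ± 0.07 (SE; limma, adjusted p = 7.68e-05). In control cords Stard4 was at 12.1, 12.3 and 15 FPKM uninjured and 10.0, 5.97, 5.14 and 8.05 FPKM injured. The control groups did not overlap, and the change was -0.80 with all libraries (limma, adjusted p = 0.303) and -1.16 without those that stand apart (limma, adjusted p = 0.0104).

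**Figure D4:**
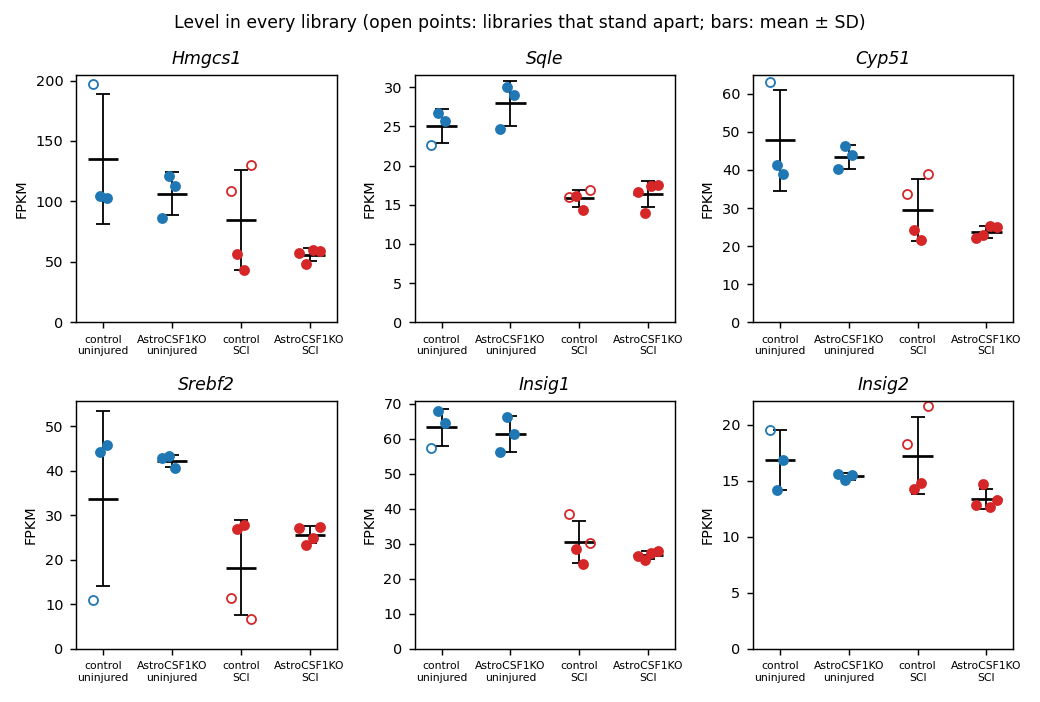
FPKM of 6 members in every library by group; open points are the libraries that stand apart, and bars are the mean and SD. Sqle and Insig1 are lower in every injured library than in any uninjured one, whereas for Hmgcs1, Cyp51 and Srebf2 the open points carry the control groups into overlap.

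The uneven response of related control genes was measured within each library, which removes anything that scales both genes alike. The log2 ratio of Insig1 to Insig2 was 1.86 ± 0.34 (SD, n = 3) in uninjured control cords, 1.93 ± 0.14 (SD, n = 3) in uninjured AstroCSF1KO cords, 0.78 ± 0.26 (SD, n = 4) in injured control cords and 0.95 ± 0.14 (SD, n = 4) in injured AstroCSF1KO cords. It was lower after injury by -1.03 on average (-1.08 in control, -0.97 in AstroCSF1KO). The log2 ratio of Srebf2 to Srebf1, the gene of the SREBP that mainly drives fatty acid synthesis, was 0.79 ± 0.09 and 0.73 ± 0.04 (SD, n = 3) in uninjured control and AstroCSF1KO cords, and 0.19 ± 0.20 and -0.04 ± 0.15 (SD, n = 4) in injured ones. Its mean difference was -0.69 (-0.60 in control, -0.77 in AstroCSF1KO). Without the libraries that stand apart the differences were -1.10 and -0.74. Both pairs were chosen after their values were seen, so these differences are a description and no test is given.

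The neighbouring branches of lipid metabolism were read from the same fits. In AstroCSF1KO cords, of 12 genes of SREBP1 and fatty acid synthesis, 7 fell, where 26.1% of all genes did, and none rose (median -0.31). Acly, which supplies cytosolic acetyl-CoA, fell by 0.59, Acss2, which makes acetyl-CoA from acetate, fell by 0.56, and the fatty acid synthase gene Fasn fell by 0.57 on the log2 scale (limma, adjusted p = 0.000151, 0.000242 and 0.000490). Srebf1 itself was at 24.9 to 25.2 FPKM uninjured and 24.3 to 29.6 FPKM injured, and its change of 0.07 was not called (limma, adjusted p = 0.465). Of 11 genes of cholesterol export, esterification and oxysterols, 7 rose, where 19.7% of all genes rose, and 2 fell (median 0.70). Abca1, a cholesterol exporter, went from 3.39, 3.24 and 2.83 FPKM to 27.9, 26.4, 25.1 and 20.6 FPKM, a rise of 2.64 ± 0.11 (SE; limma, adjusted p = 4.27e-06). The ubiquitin ligase gene Mylip, whose protein removes lipoprotein receptors, and Apoe, the main lipid carrier of the nervous system, rose by 1.67 and 2.05 on the same scale (limma, adjusted p = 5.05e-06 and 2.54e-05). Cyp46a1, the neuronal cholesterol hydroxylase, fell by 0.60 and the oxysterol receptor gene Nr1h2 fell by 0.39 (limma, adjusted p = 0.000636 and 0.00450). Of 7 genes of SREBP processing and sterol-dependent degradation, 2 rose (Erlin2, 0.45, and Erlin1, 0.28, both of a complex that degrades endoplasmic reticulum proteins; limma, adjusted p = 0.000413 and 0.0267) and none fell (median 0.07).

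In control cords with all libraries, 2 of the 11 export genes rose, where 1.03% of all genes did: Ch25h, which makes an oxysterol that suppresses SREBP2 processing (2.71, adjusted p = 0.00626), and Mylip (1.55, adjusted p = 0.0423; limma). No gene of the fatty acid or SREBP processing lists was called there. Without the libraries that stand apart, 7 export genes rose, where 12.2% of all genes did, 5 fatty acid genes fell, where 11.7% of all genes did, and no SREBP processing gene was called (limma).

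Cell type markers were read beside these results, as summed FPKM per library. The 14 oligodendrocyte and myelin markers summed to 3530 to 4088 FPKM in uninjured and 3707 to 4339 FPKM in injured AstroCSF1KO cords, and to 3872 to 4400 and 3301 to 4813 FPKM in control cords. Injured over uninjured means were 1.04 and 0.966. In AstroCSF1KO cords 1 marker rose and 2 fell (limma), where 19.7% of all genes rose and 26.1% fell. The same shares stand beside the marker counts below. The 9 neuron markers summed to 1610 to 1876 FPKM uninjured and 995 to 1112 FPKM injured in AstroCSF1KO cords, and to 1671 to 2014 and 923 to 1185 FPKM in control cords; 8 of 9 fell in AstroCSF1KO cords, with a median of -0.71, near that of the pathway members. The 10 microglia and macrophage markers summed to 67.8 to 76.9 FPKM uninjured and 981 to 1831 FPKM injured in AstroCSF1KO cords, and to 70.2 to 87.2 and 996 to 1391 FPKM in control cords, and all 10 rose in AstroCSF1KO cords. Fibroblast markers rose for 6 of 6 genes and astrocyte markers for 4 of 9, with 1 lower. None of the markers in these lists was at 0 in any library. Erythroid markers were higher after injury (injured over uninjured means 10.2 in AstroCSF1KO and 45.7 in control cords), oligodendrocyte precursor markers were at ratios of 0.877 and 0.762, endothelial ones at 1.14 and 1.51, and Schwann cell ones, with Pmp2 at 0 in at least 1 library, at 0.543 and 0.530. The part of these shifts in the pathway result was not tested.

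The genotype comparisons asked whether astrocyte Csf1 loss changed the pathway, and no member was called. In uninjured cords the changes of AstroCSF1KO against control ran from -0.61 to 1.07, with 12 negative and 13 positive and a median of 0.02 against 0.04 over all genes. None of the 25 members, and 0% of all genes, was called (limma), none had an unadjusted p under 0.05, where 2.18% of all genes did, and voom called none. The groups did not overlap for 3 members lower and 3 higher, where 23.3% of all genes did not overlap in either direction. With the control library that stands apart left out, the range was -0.34 to 0.42, with a lowest adjusted p of 0.381 (limma). The 2 controls left are female by Xist and Ddx3y, whereas the AstroCSF1KO cords are of both sexes, so sex is unbalanced there.

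In injured cords the changes ran from -0.53 for Idi1 to 1.15 for Mvd, with 11 negative and 14 positive and a median of 0.04 against 0.05 over all genes. Again 0 members and 0% of all genes were called by limma, no member had an unadjusted p under 0.05 (3.28% of all genes did), voom called none, and no member had groups that did not overlap, against 3.15% of all genes. Without the 2 injured control libraries that stand apart, the range narrowed to -0.30 to 0.28 (lowest adjusted p = 0.714, limma). Both controls left are male, whereas the injured AstroCSF1KO cords are of both sexes, so sex is unbalanced here too. Levels of Hmgcs1, for instance, were 48.5 to 60.0 FPKM in injured AstroCSF1KO cords and 43.6 and 56.1 FPKM in the other injured control cords. Insig1 differed by 0.03 ± 0.08 (SE) and Srebf2 by -0.09 ± 0.08 (SE) in that subset.

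The interaction, the injury change in AstroCSF1KO minus that in control cords, was also called for 0 of 25 members and 0% of all genes (limma on 14 libraries; adjusted p = 0.999985 for each member). No member had an unadjusted p under 0.05, where 0.600% of all genes did, and voom called none. Estimates ran from -0.60 to 0.17, with SE from 0.15 to 0.95, so that differences as large as the injury changes themselves were not detectable for the members with the widest error. Without the libraries that stand apart they ran from -0.72 for Pmvk to 0.47 for Hsd17b7 (lowest adjusted p = 0.311, limma). The injury change was thus called in one genotype and not in the other with all libraries, while the difference between genotypes was not.

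**Figure D5:**
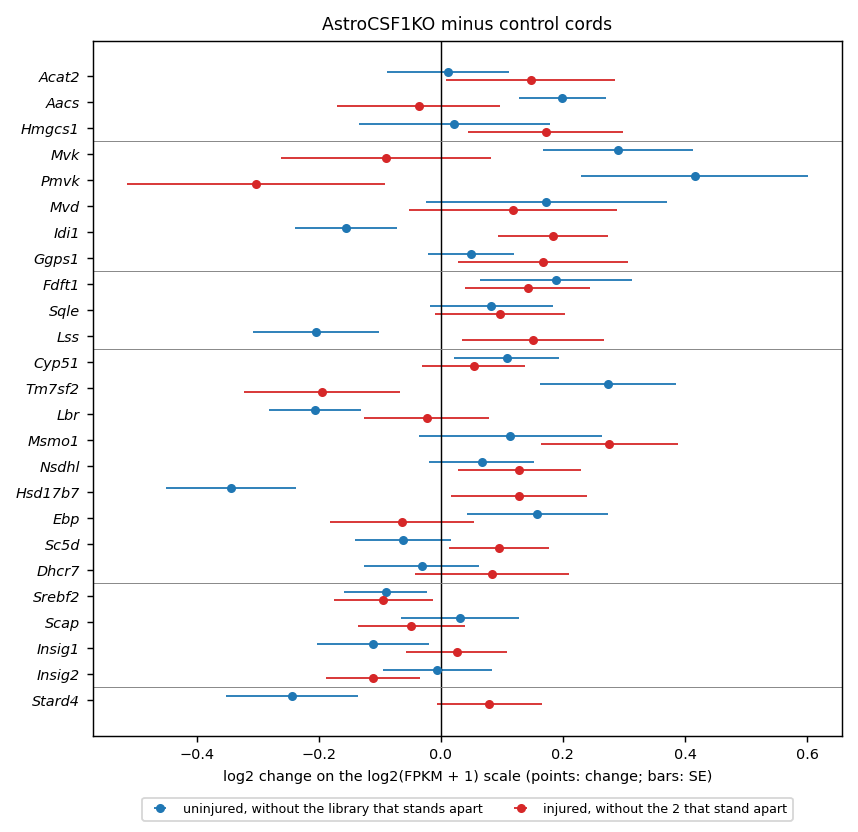
AstroCSF1KO minus control for 25 members, leaving out the 3 control libraries with few single-read genes; the x axis is the log2 change on the log2(FPKM + 1) scale, points are limma estimates in uninjured (blue) and injured (red) cords, and bars are 1 SE. Estimates lie between -0.34 and 0.42 on both sides of 0, and none was called. Sex is unbalanced between the genotypes in both sets.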

How the data were processed

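Per the labels' protocols, poly(A) RNA of spinal cord tissue was read from both ends for about 150 bp, by a protocol that does not mark strand. CASAVA 1.8, HISAT2 and mm39 are named in the submitters' processing notes; the counting program and the gene annotation are not given in the sources read. The authors deposited 1 table of FPKM values for 56748 genes and 14 libraries. Gene names and positions are those of the table.

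Reads were recovered from FPKM times gene length divided by the smallest such product in a library; 100% of values above 0 were whole within 0.01, and totals were 13263610 to 21969581. Genes with FPKM of at least 1 in at least 3 libraries (15155) were tested with limma 3.58.1 (R 4.3.3, intensity trend) on log2(FPKM + 1), which understates the change of low genes. Pairwise fits used only the 2 groups compared and the interaction all 14 libraries. P-values were adjusted by Benjamini-Hochberg over all genes tested, and 0.05 was the threshold. The labels do not say that each library is a separate animal, so p-values measure the spread between these libraries. The method was tested on simulated data in which all libraries had the same dispersion, so that test does not cover libraries that stand apart.

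The members and lists were chosen with earlier results of these data known. Values in every library are given for the genes of SREBP2 control and transport and for the 3 members of each other role with the smallest limma p after injury in AstroCSF1KO cords. Other lists give up to 3 called genes with the smallest p; Pmvk, Msmo1, Dhcr7, Nsdhl and the members not called are named to complete a count, and Ch25h in AstroCSF1KO cords, Cyp46a1, Nr1h2, Pggt1b and Srebf1 were chosen after their values were seen. Same-numbered replicates deviated together in the control injury comparison (correlations of 0.616, 0.832 and 0.733 between deviations from group means), although libraries with different numbers reached 0.831, 0.812 and 0.708, above the same-number value for replicate 1. In the other comparisons at least 1 same-number value was under 0.1. The blocked count stands beside the control result. In the injury comparisons the block sets aside injured replicate 4, which has no uninjured match. The labels do not explain the numbers. The alternatives were other pseudocounts, filters and scalings, voom, 1 fit of all libraries, a replicate block, a sex term, and fits without each library or kind of library; a fit without both kinds of libraries and the ratios were added after seeing the data. Promoter sequences are from RefSeq (GRCm38.p6). For 4 members (Sqle, Fdft1, Fdps and Stard4) none was used here. Matplotlib 3.10.9 drew the plots.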

Additional observations from a re-analysis of the deposited data

Results flagged for a closer look

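In 50 groups of 4 libraries, 25 members in each injured group, 2 had a library far from the others by a gap test (gap over range above 0.829), where chance gives about 5% of groups. Nsdhl, an X-linked gene of sterol demethylation, was at 12.5 FPKM in injured control replicate 4, one of the libraries that stand apart, against 8.80 to 9.01 FPKM in the other 3 (gap over range 0.943). Hsd17b7 was at 7.02 FPKM in injured AstroCSF1KO replicate 2, a library with more ribosomal RNA, against 8.96 to 9.18 FPKM in the other 3 (gap over range 0.895).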

How the results depend on the processing

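The count of members called after injury depended on which libraries were in the fit. In control cords it was 0 in the main comparison and with each library left out in turn (0 to 0), but 6 with all 14 libraries in one fit (1.87% of all genes were called lower), 17 without the libraries that stand apart (11.7%) and 6 with the replicate block (1.47%). In AstroCSF1KO cords it was 21, and 19 to 21 with each library left out; it was 7 with all 14 libraries in one fit (2.01% of all genes), which takes in the wider spread of the control groups, and 4 (Idi1, Sc5d, Srebf2 and Insig1; 2.67% of all genes) without the libraries rich in ribosomal RNA, which leaves 1 injured library that is assumed to vary like the others. Over the whole table the calls went from 158 to 63 without a filter on low values, 94 with a filter of 5 FPKM, 104 with voom, 66 with a sex term, 1073 in one fit, 1030 with the block and 3624 without the libraries that stand apart in control cords, and from 6943 to 1141 in one fit and 1446 without the libraries rich in ribosomal RNA in AstroCSF1KO cords. With each library left out they were 15 to 125 and 5435 to 6863. Without the filter 15 genes were called between genotypes in uninjured and 3 in injured cords, and without both kinds of libraries 3 in uninjured cords and 4 in the interaction, none a member. Median changes of the members stayed between -0.73 and -0.48 in control and between -0.73 and -0.60 in AstroCSF1KO cords; scaling by total reads moved the control median of all genes from -0.05 to 0.05.

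Signs turned for 7 members, none of them called with the opposite sign. In control cords the block gave 0.00876 for Mvk, 0.13 for Tm7sf2, 0.0221 for Scap and -0.0873 for Insig2. The fit without injured control replicate 4, which the block sets aside, gave the same values for these genes. The fit without the libraries that stand apart gave 0.0543 for Ebp and -0.0859 for Insig2. With each control library left out, changes ran from -1.20 to 0.040 for Mvk, -0.39 to 0.28 for Ggps1, -0.92 to 0.21 for Tm7sf2, -1.01 to 0.022 for Scap and -0.088 to 0.13 for Insig2. In AstroCSF1KO cords the fit without the libraries rich in ribosomal RNA gave 0.061 for Lbr and 0.012 for Ebp. Ggps1 was called lower in AstroCSF1KO cords without injured replicate 2 (-0.26, limma, adjusted p = 0.0180). Apart from the library that the block sets aside, the cause of these shifts was not tested. Besides the control count, Scap and Insig2, the replicate block changed no call. The ratio differences stayed between -1.11 and -0.94 for Insig1 to Insig2 and between -0.74 and -0.62 for Srebf2 to Srebf1. Precision is limited by 3 and 4 libraries a group, and for Tm7sf2 by few reads (down to 17) in libraries that stand apart. The level of Fdps is uncertain because of the gene that shares its span.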

Other observations

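Of 10 genes that use isoprenoids outside sterol synthesis, 4 fell after injury in AstroCSF1KO cords, 1 rose and 5 were not called (limma; median -0.16), where 26.1% of all genes fell and 19.7% rose. Dhdds, which builds the long polyprenol for dolichol, was at 28.7, 29.5 and 28.6 FPKM uninjured and 18.8, 20.9, 21.1 and 20.3 FPKM injured, without overlap, and fell by 0.50 (limma, adjusted p = 0.000318). Rabggta and Rabggtb, the subunits that add geranylgeranyl groups to Rab proteins, fell by 0.34 and 0.27, and Pggt1b, a subunit of another geranylgeranyl transferase, rose by 0.27 (limma, adjusted p = 0.00295, 0.0151 and 0.0229). No gene of this list was called in control cords with all libraries, and 1 was lower without those that stand apart, where 11.7% of all genes were.

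Ch25h, which makes 25-hydroxycholesterol, was at 0.176 to 0.632 FPKM in uninjured and 5.08 to 13.2 FPKM in injured AstroCSF1KO cords (2.82, limma, adjusted p = 0.000137).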
